A study of Mus musculus with 8 samples.

Results

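The 10 genes of iron uptake, storage and export described here were followed in hearts of adult mice: Tfrc, Trf, Fth1, Ftl1, Slc40a1, Slc11a2, Hfe, Hamp, Ireb2 and Hmox1. They were chosen by name as 10 of the 49315 genes in the deposited table of raw counts, and all 10 were matched. The choice was made with earlier results of these data known. RNA sequencing had been done on 8 libraries of heart RNA from C57BL/6 mice, an inbred laboratory strain, aged 8 weeks, 4 from females and 4 from males, with no treatment named. The question was how the male and female heart transcriptomes differ. Nothing in the labels says that each library came from its own animal, so p-values measure only the spread between these libraries, which may be technical. Which parts of the heart were taken is not given either.

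Iron reaches cells bound to transferrin, the product of Trf, which the transferrin receptor, made by Tfrc, takes up. Slc11a2 encodes the transporter DMT1 that moves iron out of endosomes, and Hfe a membrane protein that binds the transferrin receptor. Iron that is not used is stored in ferritin, a shell of heavy (Fth1) and light (Ftl1) subunits, or leaves through ferroportin (Slc40a1), which the peptide hormone hepcidin (Hamp) removes from the cell surface. Ireb2 encodes an iron regulatory protein, an RNA-binding protein that blocks translation from iron-responsive elements in the 5′ untranslated region and protects transcripts that carry them in the 3′ untranslated region. Hmox1 encodes heme oxygenase, which releases iron from heme. Heart muscle needs iron for mitochondria and myoglobin, and makes hepcidin and ferroportin of its own.

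Matches to the iron-responsive element pattern in the members are printed because such elements are what joins uptake, storage and export genes in one control circuit. An element was searched as an unpaired C, 5 bases, the loop CAGTGN and 5 bases that pair with the first 5 (G-T pairs allowed), flanked by 5 bases on either side with at least 4 pairs, on the transcript strand of 1 principal coding transcript per gene (GENCODE release M21, GRCm38). Of 21901 coding genes searched, 6 had a match in the 5′ untranslated region (0.0274%) and 8 in the 3′ untranslated region (0.0365%). Of these, 3 of the 6 and 1 of the 8 were members. Each sequence below is 5′ to 3′ with the loop in capitals.
Fth1: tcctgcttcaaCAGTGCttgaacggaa
Ftl1: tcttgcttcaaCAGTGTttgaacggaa
Slc40a1: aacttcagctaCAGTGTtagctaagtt
Tfrc, element 1: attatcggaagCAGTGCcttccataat
Tfrc, element 2: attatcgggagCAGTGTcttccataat
Tfrc, element 3: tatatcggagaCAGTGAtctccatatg
Tfrc, element 4: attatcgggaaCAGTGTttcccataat

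Both ferritin elements and that of Slc40a1 lay in the 5′ untranslated region, at chr19:9982733-9982759 (plus strand) for Fth1, chr7:45459780-45459806 (minus strand) for Ftl1 and chr1:45925466-45925492 (minus strand) for Slc40a1. The 4 matches of Tfrc lay in its 3′ untranslated region, at chr16:32631220-32631246, chr16:32631599-32631625, chr16:32631664-32631690 and chr16:32631711-32631737 (plus strand). Tfrc was the only gene of the 21901 with 4 or more matches in the 3′ untranslated region. The pattern was not found in the transcripts searched for Trf, Slc11a2, Hfe, Hamp, Ireb2 and Hmox1, which says only that these letters were absent there. Of the other iron genes considered below, Alas2 and the ferritin copy Ftl1-ps1 each had 1 match. Elements that depart from the pattern, or lie in transcript forms not searched, would be missed, so the matches need not be all elements of a gene. A match describes the sequence and was not tested as a binding site.

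**Figure D1:**
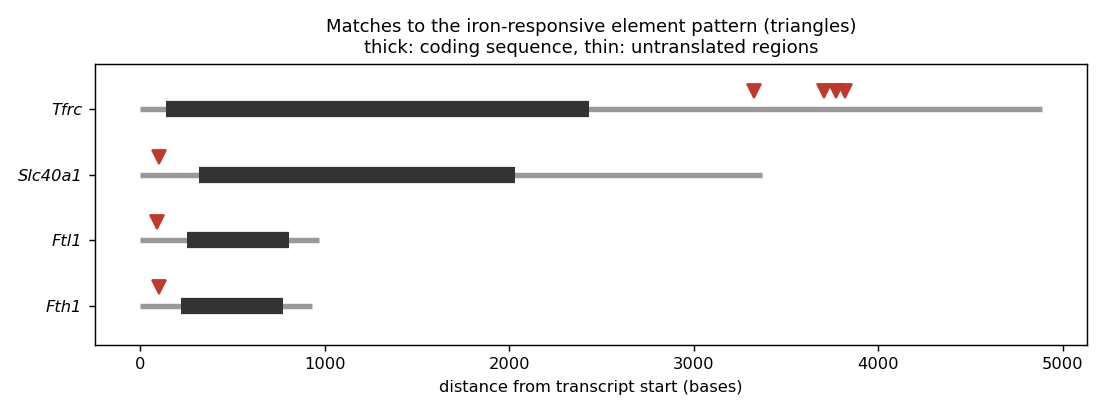
Matches to the iron-responsive element pattern (triangles) along the transcripts of Tfrc, Slc40a1, Ftl1 and Fth1, with distance from the transcript start in bases. The 4 matches of Tfrc lie beyond its coding sequence (thick), and the single matches of the others lie before it.

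Of the 10 genes, Hfe was called different between the sexes and was higher in males, by 1.3-fold, while 9 were not called. The call used edgeR's quasi-likelihood test over all genes with Benjamini-Hochberg adjustment and a threshold of 0.05, and among all 16180 genes tested 3.79% were called. With 10 members, 1 call is too few to read against that share. The median log2 fold change, male minus female, was 0.09 over the 10 genes and -0.0007 over all genes, with 8 of the 10 positive. For 2 members, Hfe and Fth1, no male library fell within the female range, and both were higher in males. Over all genes tested the ranges of the sexes were apart for 12.0%, and for 6.39% with males higher. Total counts ran from 32746054 to 35467832 for females and from 39612848 to 47097765 for males, so depth and sex moved together, and their parts cannot be told apart. Levels are given as CPM, the usual depth-scaled read count, on library sizes scaled as described under the processing, and means carry the SD over the 4 libraries of a sex. A positive log2 fold change is higher in males, and SE is its standard error.

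Several libraries stood apart in the summed RNA of cell type markers. Male replicate 4 had a summed level of 6 atrial muscle markers of 474.9 CPM against 2366.2 to 2869.2 in the other 7 libraries. Female replicate 2 had 546.4 CPM of 6 red cell markers against 2467.8 to 8631.9. In male replicate 1 the 10 macrophage markers summed to 485.0 CPM, against 245.4 to 302.2 elsewhere, with Adgre1 (F4/80) at 536.3% of the median of the other 7 libraries. The other 9 markers ranged there from 99.1% (Lyve1) through 104.3% (Timd4) and 106.4% (Mrc1) to 187.2% (C1qb). Heart muscle markers were high in all 8, between 72274.5 and 80662.6 CPM, as the tissue label says. In bulk tissue, fewer cells of a type and less RNA per cell cannot be told apart.

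**Figure D2:**
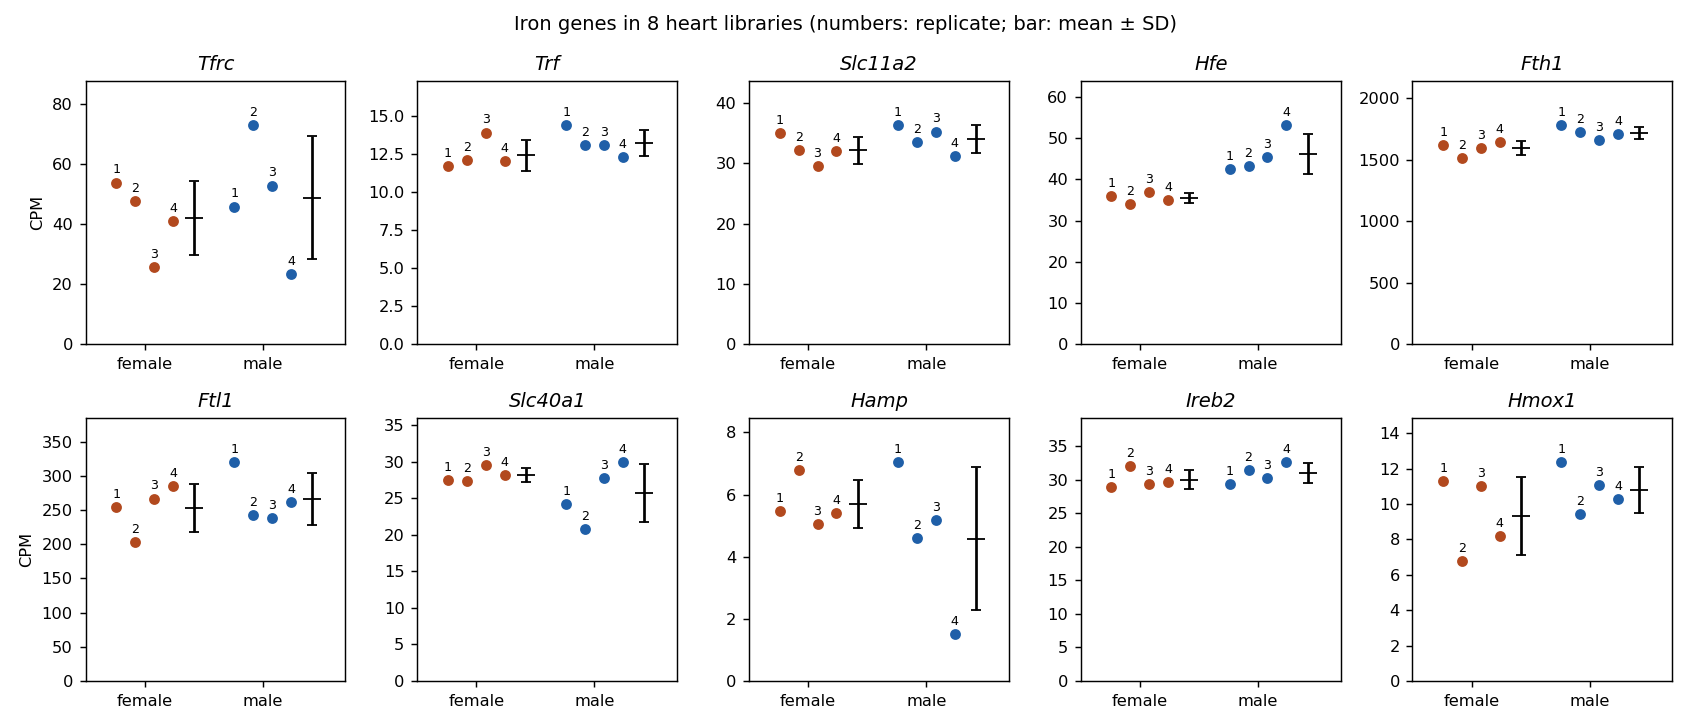
CPM of the 10 iron genes in each of the 4 female and 4 male libraries, numbered by replicate, with the mean and SD of each sex. The sexes do not overlap for Hfe and Fth1, Tfrc varies 3.13-fold over the libraries and Hamp is lowest in male replicate 4.

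Hfe (chromosome 13, 23702034 to 23710854, minus strand), whose human counterpart is mutated in hereditary hemochromatosis, was the member that differed. It was at 36.0, 34.0, 37.0 and 35.0 CPM in female replicates 1 to 4 and at 42.4, 43.2, 45.5 and 53.2 CPM in male replicates 1 to 4. The female values lay within 3 CPM of each other, every male value was above them, and male replicate 4 was the highest. The means were 35.5 ± 1.3 CPM in females and 46.1 ± 4.92 CPM in males, a log2 fold change of 0.38 (SE 0.07, edgeR adjusted p = 0.011). Hfe was called in all 8 fits that left out 1 library, with log2 fold changes of 0.30 to 0.42 and a highest adjusted p of 0.036, without female replicate 2. Without male replicate 4, the highest library, it was 0.30. No exon base of Hfe overlaps an exon of another gene, and 3.32% of the 50-base windows of its transcript recur in 48 other genes, which together held 141809 counts where Hfe held 12775.

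Of 11 marker lists, those of white and brown adipocytes, fibroblasts, macrophages and hepatocytes had sums that did not overlap between the sexes. The sums of the cardiomyocyte, atrial, red cell, other leukocyte, endothelial and Schwann cell lists overlapped. The 9 white adipocyte markers summed to 131.3 to 265.6 CPM in females and 23.1 to 73.2 in males, and 9 of 9 were called higher in females. The 4 brown adipocyte markers summed to 43.9 to 133.3 CPM in females and 29.8 to 40.5 in males (2 called higher in females), and the 6 fibroblast markers to 880.6 to 895.3 and 750.0 to 854.2 (1 called higher in females). The 10 macrophage markers summed to 245.4 to 290.3 CPM in females and 294.2 to 485.0 in males with 0 of 10 called (edgeR; 10 of 10 were tested), and the 6 hepatocyte markers to 38.3 to 44.4 and 49.9 to 65.3 with 2 of 6 called higher in males. No marker of these lists was at 0 counts in all libraries. Male replicate 4, the highest for Hfe, had 294.2 CPM of macrophage markers, the lowest sum among males. It also had 474.9 CPM of atrial markers, the lowest sum of all libraries. The part of these markers in the difference of Hfe was not tested.

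Tfrc (chromosome 16, 32608920 to 32632794, plus strand) varied widely between the libraries of both sexes. It was at 53.9, 47.7, 25.6 and 41.0 CPM in female replicates 1 to 4 and at 45.9, 73.1, 52.9 and 23.4 CPM in male replicates 1 to 4. The highest and lowest libraries were both male, female replicate 3 was nearly as low as male replicate 4, and the sexes overlapped throughout. The highest library had 3.13 times the level of the lowest, on 930 to 2882 counts. The SD of log2 CPM within a sex was 0.591, above that of 99.2% of 12168 genes whose mean log2 CPM was 1 or more. Among the members, that of Hamp alone was larger (0.688). The log2 fold change was 0.21 (SE 0.29, edgeR adjusted p = 0.74), 0.45 without male replicate 4 and -0.05 without male replicate 2, so single libraries set its sign and size.

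Trf, Slc11a2 and Ireb2 varied by at most 1.24-fold from the lowest to the highest library. Their spread within a sex was above that of 64.0%, 60.4% and 33.3% of the same 12168 genes. Transferrin RNA (Trf, chromosome 9, 103204001 to 103230444, minus strand) was at 11.7, 12.1, 13.9 and 12.0 CPM in female replicates 1 to 4 and at 14.4, 13.1, 13.1 and 12.3 CPM in male replicates 1 to 4. Its groups overlapped (log2 fold change 0.09, SE 0.07, edgeR adjusted p = 0.56). Trf shares 63.5% of its exon bases with Gm20425, an overlapping gene on the same strand that had 0 counts in all libraries. Where reads over 2 genes are left out, a setting not given in the sources used here, Trf would be counted on the remaining 1212 bases alone. Its level is uncertain for that reason, at 3.86 ± 0.294 CPM per kb of all exon bases and 10.6 ± 0.806 CPM per kb of unshared ones (SD, n = 8).

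Slc11a2 (chromosome 15, 100387898 to 100425072, minus strand) was at 35.0, 32.3, 29.6 and 32.0 CPM in female replicates 1 to 4 and at 36.4, 33.6, 35.3 and 31.2 CPM in male replicates 1 to 4. The lowest library was female and the highest male, but the groups overlapped (log2 fold change 0.08, SE 0.06, edgeR adjusted p = 0.49). Its counts pool transcript forms with different ends, which a count per gene cannot separate.

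Ireb2 (chromosome 9, 54863789 to 54912530, plus strand), the sensor of this set, varied least of all members by ratio, 1.13-fold from lowest to highest library. It was at 28.9, 32.1, 29.3 and 29.6 CPM in female replicates 1 to 4 and at 29.4, 31.4, 30.3 and 32.7 CPM in male replicates 1 to 4. The groups overlapped (log2 fold change 0.04, SE 0.05, edgeR adjusted p = 0.66). Its protein is known to be controlled by breakdown, which RNA does not show.

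Fth1 (chromosome 19, 9982703 to 9985092, plus strand), the ferritin subunit that oxidizes iron as it enters the shell, was the most abundant member. It was at 1618.0, 1509.5, 1598.1 and 1645.2 CPM in female replicates 1 to 4 and at 1782.2, 1722.8, 1662.3 and 1706.3 CPM in male replicates 1 to 4. Every male library was above every female one, by a small margin between female replicate 4 and male replicate 3. The log2 fold change was 0.11 (SE 0.04), with an unadjusted p of 0.016 that did not pass after adjustment (edgeR adjusted p = 0.15, between 0.073 and 0.33 over the alternatives). The spread within a sex was small, an SD of 0.0481 on the log2 scale.

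Ftl1 (chromosome 7, 45457944 to 45459884, minus strand), the light subunit that helps form the iron core, varied more than Fth1. It was at 254.7, 203.4, 266.8 and 285.3 CPM in female replicates 1 to 4 and at 320.8, 242.1, 238.8 and 261.3 CPM in male replicates 1 to 4. The lowest library was female replicate 2 and the highest male replicate 1, and the groups overlapped (log2 fold change 0.07, SE 0.11, edgeR adjusted p = 0.76). Female replicate 2 was also lowest in red cell markers (546.4 CPM), and female replicate 4 and male replicate 1, the 2 highest for Ftl1, were the 2 highest in them (8631.9 and 7480.7 CPM). Male replicate 2, next in red cell markers at 5559.1 CPM, was below 5 libraries for Ftl1. No red cell marker differed between the sexes (0 of 6 called by edgeR, all 6 tested), and their part in the level of Ftl1 was not tested. In macrophage markers, male replicate 1 was also highest (485.0 CPM) and female replicate 2 lowest (245.4 CPM). Female replicate 4 was at 290.3 CPM in them, below every male library, and their part was not tested either.

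The counts of the light subunit are uncertain too. The share of 50-base windows of the main transcript that occur exactly in another gene was 79.8% for Trf and 6.59% for Fth1. For Ftl1 it was 90.6%, in transcripts of 17 other genes, among them the copies Ftl1-ps1 and Ftl2-ps. Reads from such windows may be placed on a copy or left out, and how they were treated is not given in the sources used here. The 17 genes together held counts equal to 0.57% of those of Ftl1, and adding the listed copies left its log2 fold change at 0.07. Reads that were left out would be in neither count, so this addition cannot show what was lost. As deposited, the level per kb of exon of Fth1 was 8.6 to 11.5 times that of Ftl1 over the libraries. With lengths tried after the data were seen, the ratio was 5.79 to 7.73 per kb of the principal transcript. It was 5.62 to 7.51 per kb of exon bases that overlap no exon of another gene, which leaves out 34.6% of those of Ftl1. Bases kept in this way can still recur in the copies, and the uncertain counts of Ftl1 affect all of these ratios. The mitochondrial ferritin gene Ftmt had 0 counts in all 8 libraries.

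**Figure D3:**
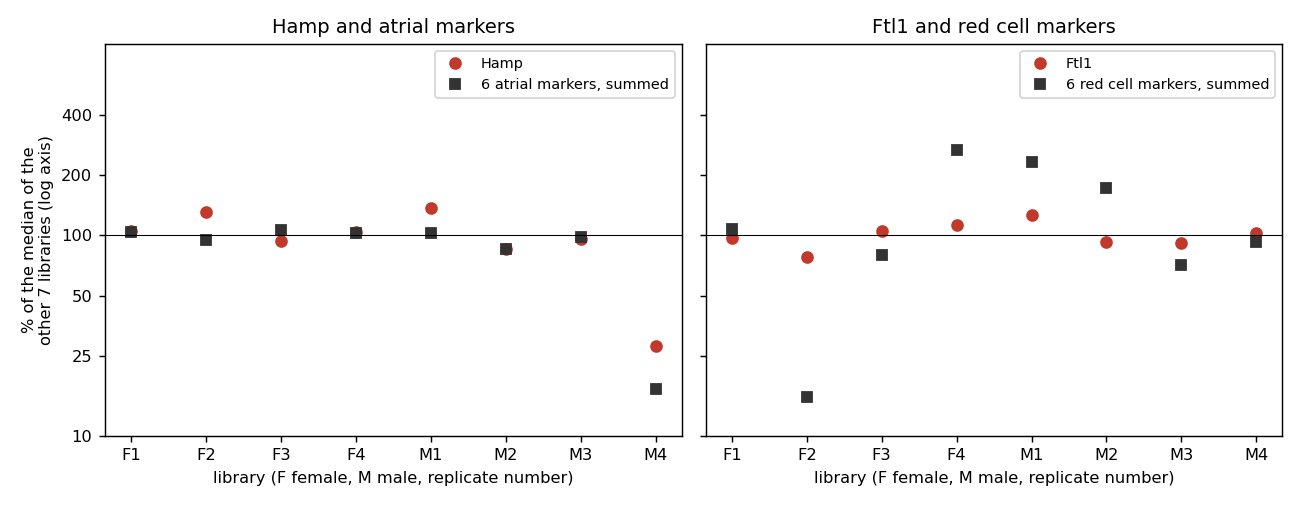
Hamp with the summed atrial markers (left) and Ftl1 with the summed red cell markers (right), each library as a percentage of the median of the other 7, on a log axis. Male replicate 4 is low for Hamp (27.9%) and atrial markers (17.1%), and female replicate 2 for Ftl1 (77.8%) and red cell markers (15.7%).

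Slc40a1 (chromosome 1, 45908068 to 45926523, minus strand), the only known exporter of iron ions from cells, was even in females and spread in males. It was at 27.5, 27.4, 29.5 and 28.2 CPM in female replicates 1 to 4 and at 24.2, 20.8, 27.7 and 30.0 CPM in male replicates 1 to 4. Of the male libraries 2 were below all females and 1 was above them. The log2 fold change was -0.13 (SE 0.09, edgeR adjusted p = 0.47), -0.22 without male replicate 4 and -0.04 without male replicate 2. In male replicate 1, where macrophage markers were highest, it was at the second lowest level, 24.2 CPM. Trf, Slc11a2, Fth1, Ftl1, Hamp and Hmox1 were at their highest in that library, and Tfrc, Hfe and Ireb2 were not. The part of the macrophage markers in these levels was not tested.

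Hamp (chromosome 7, 30942368 to 30944032, minus strand), the hepcidin gene, was set apart by 1 library. It was at 5.47, 6.80, 5.04 and 5.40 CPM in female replicates 1 to 4 and at 7.06, 4.59, 5.18 and 1.51 CPM in male replicates 1 to 4. The highest and lowest values were both male, and male replicate 4 was at 27.9% of the median of the other 7 libraries. The 6 atrial markers were low in that library too, from 11.6% (Bmp10, an atrial growth factor) through 14.6% (Nppa, atrial natriuretic peptide) and 18.5% (Myl7, the atrial myosin light chain) to 24.3% (Dkk3). The log2 fold change of Hamp was -0.32 (SE 0.32, edgeR adjusted p = 0.65) and -0.02 (SE 0.15, adjusted p = 0.97) without male replicate 4. The shared low value rests on 1 library, and the part of the atrial markers in the level of Hamp was not tested.

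Liver is the main source of hepcidin in the body, so its markers were set beside Hamp. Hepatocyte markers in male replicate 4 summed to 49.9 CPM, below the other males (62.8 to 65.3) and above all females (38.3 to 44.4). The part of liver transcripts in the level of Hamp was not tested. Hamp2, a close relative with which Hamp shares 16.6% of its 50-base windows, had 38 counts over the females and 31 over the males, too few to test. In male replicate 4 it was at 27.4% of the median of the others, a share that is imprecise because it rests on 3 counts there. Its counts were 4.44% of those of Hamp.

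Hmox1 (chromosome 8, 75093621 to 75100589, plus strand), the inducible heme oxygenase, was at 11.3, 6.77, 11.0 and 8.21 CPM in female replicates 1 to 4 and at 12.4, 9.44, 11.1 and 10.3 CPM in male replicates 1 to 4. The 2 lowest libraries were female and the groups overlapped (log2 fold change 0.22, SE 0.15, edgeR adjusted p = 0.46). Its fold change was 0.09 without female replicate 2, the lowest library for Hmox1 and for red cell markers.

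Per length, the 2 ferritin subunits stood far above the rest and the other 8 members were close together. The level of Fth1 was 1911.7 ± 97.0 CPM per kb of summed exon length (SD, n = 8), above that of 99.9% of tested genes, and the level of Ftl1 was 193.4 ± 25.8. Hamp (12.5 ± 4.14), Hfe (11.4 ± 1.84), Tfrc (7.35 ± 2.59), Hmox1 (5.75 ± 1.05), Slc11a2 (5.22 ± 0.366), Trf (3.86 ± 0.294), Ireb2 (3.22 ± 0.15) and Slc40a1 (2.99 ± 0.335) followed on the same scale. From Hamp down to Slc11a2 each gene overlapped its neighbour over the libraries, as did Ireb2 and Slc40a1, so the order within these runs is not resolved. It also depends on the length used. Per kb of the principal coding transcript, a length tried after the data were seen, Slc11a2 was at 11.0 ± 0.77, Slc40a1 at 7.99 ± 0.895, above Hmox1 at 6.41 ± 1.18, and Trf was last at 4.99 ± 0.38. The place of Trf is not settled, since its level per kb of unshared exon bases, 10.6, would put it near Hfe and Slc11a2. Fth1, Ftl1, Hamp and Hfe kept their places.

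**Figure D4:**
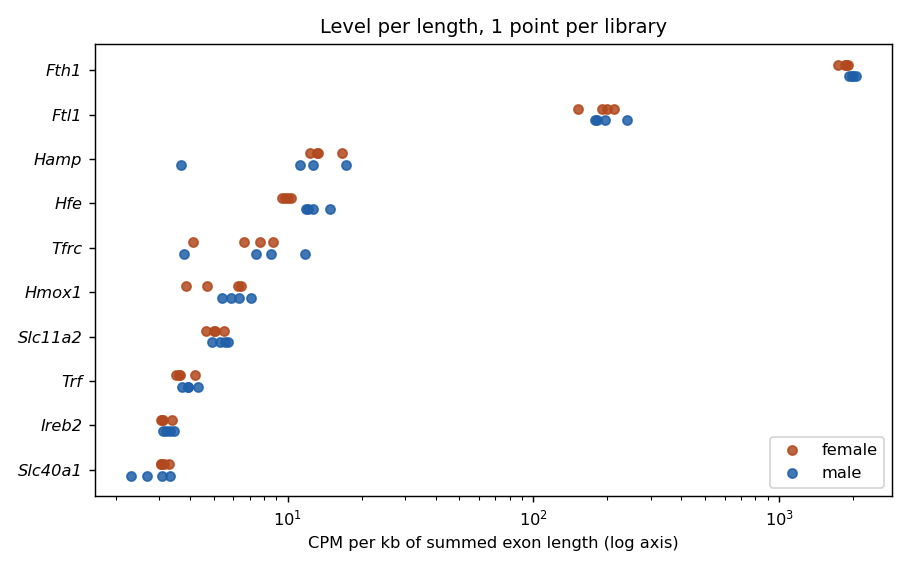
Level of each iron gene in CPM per kb of summed exon length, 1 point per library, on a log axis. Fth1 lies between 1743.1 and 2058.0 and Ftl1 between 151.8 and 239.4, and the other 8 genes lie between 2.31 and 17.2.

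A further 85 genes of iron and heme handling were listed in 8 groups, and 74 had enough counts to be tested. Of these, 6 were called (edgeR), each with more RNA in males, and none with more in females (0 of 74). Over all genes the calls were 2.03% for males and 1.76% for females. The median log2 fold change of the 74 was 0.05, and over all genes it was -0.0007. Of the 74, 49 were positive, beside 49.7% positive over all genes. The lists were chosen with earlier results of these data known, so these shares cannot serve as a test of iron genes as a group. Apart from Hpx, the differences of the called genes were below 0.4 on the log2 scale.

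Among 10 tested genes of uptake and iron reduction, 1 was called. Scara5, a receptor for ferritin, was at 28.7, 29.4, 31.1 and 27.8 CPM in female replicates 1 to 4 and at 38.1, 33.3, 34.6 and 35.0 CPM in male replicates 1 to 4. Every male library was above every female one (log2 fold change 0.27, SE 0.05, edgeR adjusted p = 0.014), and each of the 8 fits on 7 libraries called it. It was lost without female replicate 2 and male replicate 4 together (adjusted p = 0.066). None of 3 tested genes of ferritin handling was called, with Ncoa4, the receptor that delivers ferritin to lysosomes, having the smallest p (log2 fold change -0.06, edgeR adjusted p = 0.46).

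Of 11 genes of heme uptake, export and breakdown, 3 were called, all higher in males. Of the 11, 7 had positive log2 fold changes and 4 negative ones. Hp, the haptoglobin gene, named outside the fixed rule, had the lowest, -0.71, and was not called (edgeR adjusted p = 0.11). Hpx, which encodes the heme-binding plasma protein hemopexin, was at 1.06 ± 0.162 CPM in females and 1.68 ± 0.213 CPM in males (edgeR adjusted p = 0.043). Cd163, the macrophage receptor for hemoglobin-haptoglobin, was at 20.5 ± 2.91 and 26.2 ± 1.24 CPM (edgeR adjusted p = 0.044). The third, the heme transporter gene Slc48a1, is named outside the fixed rule, after its values were seen (73.7 ± 2.19 and 82.1 ± 2.86 CPM, edgeR adjusted p = 0.047). Of the 8 fits on 7 libraries, 1 called Hpx, 1 called Cd163 and 1 called Slc48a1. The highest adjusted p was 0.11 for Hpx (without male replicate 3), 0.12 for Cd163 and 0.13 for Slc48a1 (both without female replicate 2). Hepatocyte and macrophage marker sums, given above, were also higher in every male library than in every female one. Their part in these calls was not tested.

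Heme synthesis and iron-sulfur cluster genes gave 1 call each. Alad, the second enzyme of heme synthesis, was at 42.7 ± 2.38 CPM in females and 48.7 ± 1.72 CPM in males (log2 fold change 0.19, edgeR adjusted p = 0.043), 1 of 9 tested. Nfs1, the desulfurase that supplies sulfur to mitochondrial clusters, was at 106.6 ± 1.28 and 116.2 ± 1.86 CPM (0.12, edgeR adjusted p = 0.048), 1 of 19 tested, of which 17 had positive fold changes with a median of 0.08. Of the 8 fits on 7 libraries, 1 called Alad and 0 called Nfs1, with a highest adjusted p of 0.12 for both, without male replicate 3 and without female replicate 2. Alas2, the red cell enzyme that carries an iron-responsive element, ran from 12.3 CPM in female replicate 2 to 217.5 in female replicate 4, the libraries lowest and highest in red cell markers.

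None was called by edgeR among 7 ferroxidase and hepcidin control genes, 7 iron and oxygen sensors and 8 cytosolic cluster assembly genes. The smallest p belonged to Tmprss6, a protease that restrains hepcidin, on 34 female and 74 male counts (log2 fold change 0.84, edgeR adjusted p = 0.14), Epas1, the hypoxia factor HIF-2 alpha (0.16, adjusted p = 0.1), and Mms19 (-0.06, adjusted p = 0.49). Epas1 was called by DESeq2 (adjusted p = 0.027) and did not overlap between the sexes.

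**Figure D5:**
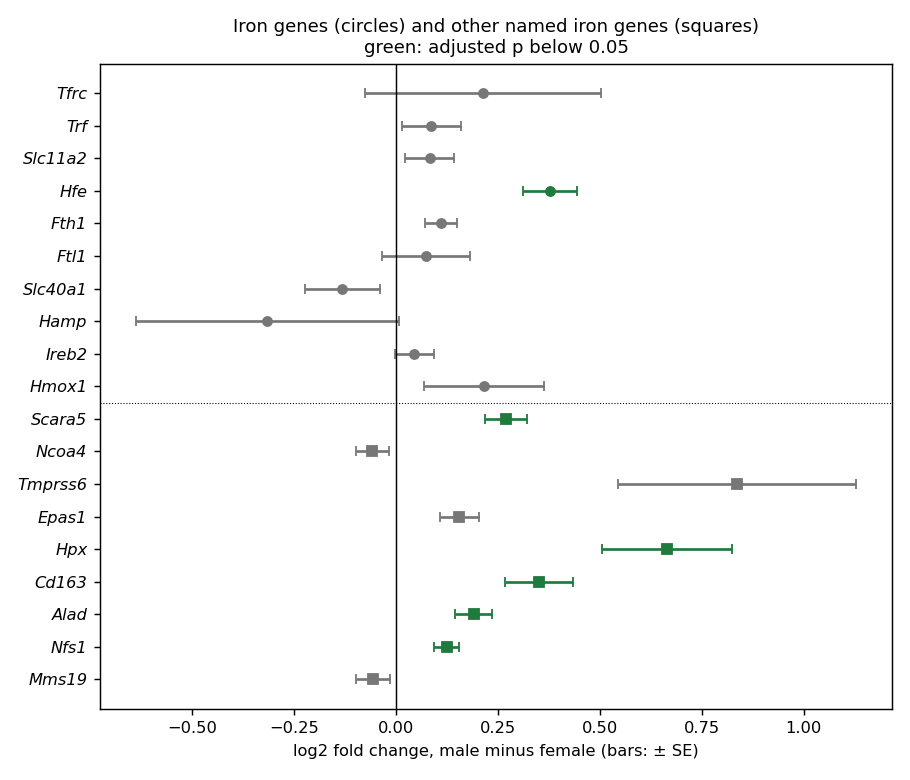
Log2 fold change, male minus female, of the 10 iron genes (circles) and of the other iron genes named by rule (squares), with SE bars. Among the circles only Hfe, at 0.38, has an adjusted p below 0.05 (green).

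The genes whose levels were most like those of each member were sought by Pearson r of log2 CPM over the 8 libraries among 12139 genes, as a measure of likeness without a test. The 3 nearest genes of each member had r between 0.93 and 0.991. Nearest to Hfe were Alox5 (0.988), Slc25a33 (0.986) and Acad12 (0.979), which like Hfe were highest in male replicate 4. Nearest to Tfrc were Mvk (0.989), 5730480H06Rik (0.963) and Ccn1 (0.957), with their highest value in male replicate 2. Nearest to Hamp were Tbc1d1 (0.991), Npr3 (0.974) and Dcn (0.968), all lowest in male replicate 4, and to Ftl1 Ube2o (0.968), Trpv2 (0.939) and Tbc1d14 (0.938), all lowest in female replicate 2. With 8 libraries searched against so many genes, high values of r arise easily.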

How the data were processed

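The authors deposited raw counts per gene for 8 libraries. The tools named are STAR 2.5.2b, Trimmomatic 0.36 and Subread 1.5.2, whose featureCounts program counts reads, with build GRCm38 (mm10), per the submitters' processing notes, which give no order, annotation release, strand setting or rule for multi-mapped reads. The input was 1 µg of total RNA, per the labels' protocols. They also deposited a normalized signal, which equals the counts over a library-wide factor of 0.863 to 1.196, found from the values. Single-sample tables held 100% the same counts, with exon positions and the summed exon length (other units: bases).

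Genes were filtered with filterByExpr (minimum count 10, total 15), scaled by TMM and tested with edgeR 4.0.16 (R 4.3.3), quasi-likelihood F-test, with adjustment over all 16180 genes. Standard errors were taken as the size of the log2 fold change over the root of F. The procedure was tested on simulated data. Alternatives were DESeq2 1.42.0, limma 3.58.1 (voom, and log2 of the deposited signal plus 1), other scalings and filters, the replicate block and leaving out libraries.

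The members and lists were chosen with earlier results of these data known. Named were the members and, per other list, up to 2 called genes in each direction, or the one with the smallest p. Lists held 95 iron genes and 73 markers, of which 1 marker had no match.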

Additional observations from a re-analysis of the deposited data

Results flagged for a closer look

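Among 62 groups of 4 libraries checked (members, other named iron genes and marker sums by sex), 4 held a value far from the other 3, by Dixon's test of its gap to the nearest value. Chance flags about 1 in 20 such groups. Ncoa4 was at 47.9 CPM in female replicate 4 and at 43.4 to 43.9 in the other females. The macrophage markers summed to 485.0 CPM in male replicate 1 and to 294.2 to 302.2 in the other males. In the same library the Schwann cell markers summed to 31.1 CPM, against 24.2 to 25.1. The hepatocyte markers summed to 49.9 CPM in male replicate 4, against 62.8 to 65.3 in the other males. No member was among them.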

How the results depend on the processing

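Hfe was called under all 17 alternatives run for it, with log2 fold changes of 0.28 to 0.42, and the other 9 members were called under none, so the count of members called stayed at 1. The count over all genes was 613, against 964 with DESeq2's Wald test, 917 with no filter (580 of them also called in the 613), 315 to 490 with 1 library left out (315 without male replicate 3, 354 without female replicate 2 and 379 without female replicate 3), 427 with the replicate block and 197 without female replicate 2 and male replicate 4, a pair chosen after seeing the data. Without that pair the log2 fold changes were 0.51 for Tfrc, and Ftl1 (-0.0092) and Hamp (0.082) changed sign. With 1 library left out they ran from -0.029 (male replicate 1) to 0.136 for Ftl1, which was also negative without female replicate 2 (-0.019), from -0.047 (male replicate 2) to 0.45 for Tfrc and from -0.61 (male replicate 1) to -0.017 (male replicate 4) for Hamp. The cause was not tested beyond the library values given above. Same-numbered libraries share no stated origin, and their deviations correlated at -0.047 to 0.054. Under the replicate block Hfe and Scara5 kept their calls and Hpx, Cd163, Slc48a1, Alad and Nfs1 lost theirs. Among the members, Hamp had the fewest counts (69 to 291 per library).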
